A study of Mus musculus with 6 samples.

Results

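Mgp encodes matrix Gla protein, a small secreted protein that keeps cartilage and the artery wall from calcifying. Of all genes tested in hypoxia-treated against normoxic GC-2spd cells, its RNA showed the largest decrease. It is described here together with 9 genes of mineralization and of the vitamin K pathway: Spp1, Alpl, Enpp1, Ank, Ggcx, Vkorc1, Gas6, Bmp2 and Bmp4. These 10 genes were picked from 43412 annotated genes. Mgp was selected on its own fold change in this comparison, so its values are given as a description with no test, whereas the other 9 were listed by pathway with earlier results of these data known.

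GC-2spd is an immortalized mouse spermatocyte line, and the labels give testis as its tissue and C57BL/6J as its strain background. Poly(A) RNA was sequenced from 3 libraries of hypoxia-treated cells at 1% oxygen and 3 libraries of normoxic cells at 21% oxygen, all at 5% CO2 in the same medium. The methods state 37 °C for the hypoxia workstation and no temperature for the normoxic incubator. The description of the hypoxia model gives an exposure of 48 h. All libraries come from 1 cell line, and the methods describe experiments in triplicate without saying if the replicate libraries were grown as independent cultures, so p-values measure the spread between these libraries, which may be technical.

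The depth was estimated from the ratio of deposited coverage to FPKM. It came to 5.80, 6.72 and 5.92 gigabases aligned in the hypoxia-treated libraries and 6.61, 5.75 and 6.20 gigabases in the normoxic libraries. Levels are TPM, transcripts of a gene as a share of all transcripts after division by transcript length. The TPM of annotated genes summed to less than that of loci assembled from the reads, by 2.30% to 5.17% in hypoxia-treated libraries and 1.86% to 2.75% in normoxic libraries. This is a net difference between the sums and not a count of reads outside annotation. Transcripts of the mitochondrial genome took 5.49% to 5.59% of the annotated TPM in hypoxia-treated libraries and 9.25% to 9.29% in normoxic libraries. Of 8 germ cell markers (Ddx4, Dazl, Sycp1, Sycp3, Tex101, Acr, Prm1 and Tnp1), 4 were listed at 0 in every library and the 8 together summed to 0.222 to 0.751 TPM in hypoxia-treated libraries and 0.642 to 0.881 TPM in normoxic libraries, so the germ cell label was not borne by these markers. Fibroblast markers (6 genes, led by Col1a1 and Col1a2) summed to 2698 to 2959 TPM in hypoxia-treated libraries and 2266 to 2335 TPM in normoxic libraries. Among them Col1a1 was called higher (1720 TPM in hypoxia-treated cells and 1161 TPM in normoxic cells on average), Col1a2 and Col3a1 were not called, Pdgfrb was called lower (1.45 TPM in hypoxia-treated cells and 6.62 TPM in normoxic cells), and Lum and Dcn stayed under 1 TPM. Vascular smooth muscle markers (6 genes) summed to 187 to 208 TPM in hypoxia-treated libraries and 115 to 122 TPM in normoxic libraries. Of these, Smtn (130.1 TPM in hypoxia-treated cells and 55.2 TPM in normoxic cells on average) and Cnn1 were called higher, Des was called lower, Acta2 and Tagln were not called, and Myh11 was near 0. Cnn1 averaged 0.806 TPM in normoxic cells and Des 0.591 TPM in hypoxia-treated cells, so each passed the filter of a mean of 1 TPM only through its other group. Among 6 osteoblast markers, Ibsp and Dmp1 were listed at 0 in all 6 libraries. Bglap, Sp7 and Phex stayed under 1 TPM in every library, and Runx2 was present. Among 6 chondrocyte markers, Matn1 and Col9a1 were listed at 0 in all 6 libraries. Col2a1, Acan and Comp stayed under 1 TPM in every library, and Sox9 was present. Endothelial markers (6 genes) summed to 0.294 to 1.51 TPM in hypoxia-treated libraries and 0.960 to 2.27 TPM in normoxic libraries, with Cdh5 and Emcn listed at 0. Sertoli cell markers (6 genes) summed to 3.13 to 4.98 TPM in hypoxia-treated libraries and 3.53 to 4.56 TPM in normoxic libraries. Only Rhox5 of these was tested, and it was not called. Leydig cell markers (6 genes) summed to 7.17 to 10.6 TPM in hypoxia-treated libraries and 3.61 to 6.88 TPM in normoxic libraries. Insl3, which Jak3 overlaps on the same strand, was called higher, Star was not called, and the rest were not tested. In bulk RNA, fewer cells that express a gene and less of its RNA per cell cannot be told apart, and the part of these markers and shares in the results was not tested.

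Soft tissues resist calcification through several layers of control. MGP becomes active after gamma-glutamyl carboxylase (GGCX) turns some of its glutamates into Gla residues, a step that needs reduced vitamin K, which VKORC1 regenerates. Outside the cell, pyrophosphate blocks the growth of hydroxyapatite crystals: ENPP1 makes it from ATP, ANK exports it or its precursor, and tissue-nonspecific alkaline phosphatase (Alpl) destroys it. Osteopontin (Spp1) binds mineral directly, and MGP also binds bone morphogenetic proteins such as BMP2 and BMP4, which drive cells toward bone and cartilage fates.

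The coding sequence of Mgp is shown because carboxylation acts on its glutamates, which links Mgp to Ggcx and Vkorc1. The gene lies on the minus strand at chr6:136872436-136875805 (mm10) as ENSMUSG00000030218, in 4 exons, and no other annotated gene overlaps it. The first 100 of its 104 codons are given 5′ to 3′ from the GENCODE transcript on GRCm38, with the 8 in-frame glutamate codons in capitals. Which of them were carboxylated was not measured.
Mgp: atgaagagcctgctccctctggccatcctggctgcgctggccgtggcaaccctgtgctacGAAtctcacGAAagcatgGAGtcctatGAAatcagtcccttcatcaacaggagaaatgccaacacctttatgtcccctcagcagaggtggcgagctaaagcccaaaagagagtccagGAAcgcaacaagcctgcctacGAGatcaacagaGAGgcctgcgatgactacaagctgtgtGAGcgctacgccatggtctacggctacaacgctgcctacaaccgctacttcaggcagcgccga

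Mgp had 4.08, 2.58 and 3.22 TPM in hypoxia-treated cells, against 101.5, 89.2 and 101.2 TPM in normoxic cells. The groups were far apart, and each of the 3 libraries of a group lay close to the others. The mean was 3.29 ± 0.752 TPM in hypoxia-treated cells and 97.3 ± 7.04 TPM in normoxic cells (SD, n = 3 each), so hypoxia-treated cells kept 3.39% of the normoxic level. On the log2(TPM + 1) scale, which understates the change of low genes, the fold change was -4.53 with an SE of 0.13. The next largest decrease of any tested gene was that of Ccl2, a monocyte chemokine, at -4.05. By level, Mgp ranked 11461st among all genes in hypoxia-treated cells and 1708th in normoxic cells. The locus that StringTie assembled from the reads at this position carried the same TPM as the annotated gene in every library. This also held for Gas6. The assembled and annotated TPM differed in at least 1 library by up to 1.41% for Ank, 13.0% for Spp1, 25.1% for Ggcx and 30.6% for Bmp4, and Vkorc1 had no assembled locus in hypoxia-treated replicate 1.

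**Figure D1:**
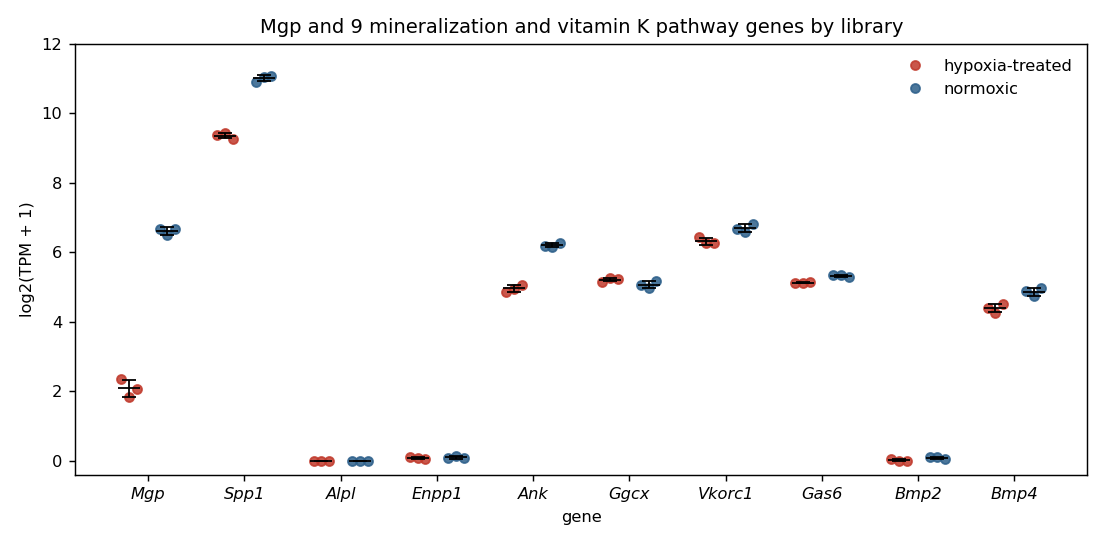
Level of the 10 genes in each library on the log2(TPM + 1) axis, with 3 hypoxia-treated libraries in red left of 3 normoxic libraries in blue for each gene. Black bars give the mean and SD; the groups of Mgp are 4.53 log2 units apart, while Alpl, Enpp1 and Bmp2 lie near 0 in all libraries.

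Of the 9 other genes, 6 passed the filter of a mean of 1 TPM and were tested with the rest of the 13749 genes, and 5 of these 6 were lower in hypoxia-treated cells by limma at an adjusted p under 0.05, with none higher. Over all tested genes 36.1% were called lower and 17.9% higher, 54% in all. The 3 libraries of each group did not overlap for the same 5 genes, and such a separation occurred for 41% of all tested genes in the lower direction and 21.4% in the higher. The median log2 fold change of the 6 genes was -0.42, beside -0.13 over all tested genes. Scaling the libraries by median ratios brought the median of all genes to 0.00 and evened the calls over all genes to 3603 higher and 3622 lower, in place of 2463 higher and 4967 lower. Under that scaling 3 of the 6 genes (Spp1, Ank and Bmp4) were lower and 1 (Ggcx) was higher.

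Among the enzymes that act on Gla proteins, Ggcx, the carboxylase itself, had 34.8, 37.2 and 36.7 TPM in hypoxia-treated cells, against 32.3, 30.5 and 35.4 TPM in normoxic cells. The ranges overlapped, and the log2 fold change of 0.14 ± 0.07 (SE) was not called (limma adjusted p = 0.119). It passed the threshold as higher under median-ratio scaling, at 0.29 (limma adjusted p = 0.00817), under quantile normalization, at 0.29 (limma adjusted p = 0.00855), and without normoxic replicate 3, at 0.20 (limma adjusted p = 0.0498). The loci assembled from the reads at Ggcx had 26.1, 33.0 and 32.7 TPM in hypoxia-treated cells and 32.3, 27.7 and 35.3 TPM in normoxic cells. Their means, 30.6 TPM in hypoxia-treated cells and 31.8 TPM in normoxic cells, were in the opposite order to those of the annotated gene. These ranges overlapped too, so the assembled loci show no clear direction. As a description that follows from the choice of Mgp, the TPM of Mgp was 0.117, 0.0694 and 0.0879 times that of Ggcx in hypoxia-treated cells and 3.15, 2.92 and 2.86 times in normoxic cells.

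Vkorc1, the vitamin K epoxide reductase that warfarin inhibits, had 86.0, 75.6 and 76.9 TPM in hypoxia-treated cells, against 102.2, 95.0 and 112 TPM in normoxic cells. Every hypoxia-treated library lay below every normoxic one, at 77.0% of the normoxic mean, and the log2 fold change was -0.37 ± 0.08 (limma adjusted p = 0.00677). Under median-ratio scaling it was -0.23 and no longer called (limma adjusted p = 0.0540). The value of Vkorc1 is uncertain, since Gm21974 overlaps it on the same strand and had 21.6, 19.4 and 18.8 TPM in hypoxia-treated cells and 25.8, 24.0 and 27.6 TPM in normoxic cells.

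Gas6, a Gla protein that bridges TAM receptor kinases to phosphatidylserine on dying cells, had 33.8, 34.1 and 34.3 TPM in hypoxia-treated cells, against 39.6, 39.9 and 38.2 TPM in normoxic cells. The groups did not overlap, but the difference was small at a log2 fold change of -0.20 ± 0.05 (limma adjusted p = 0.0116). It was close to the median of all genes, and the call was lost under median-ratio scaling (-0.06, limma adjusted p = 0.358) and quantile normalization (-0.06, limma adjusted p = 0.364).

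The wider list of the vitamin K cycle and Gla proteins held 25 genes besides Mgp, of which 13 were tested, with 8 lower and 1 higher. Their median log2 fold change was -0.30, beside -0.13 over all tested genes. Over all tested genes 36.1% were called lower and 17.9% higher. Without Mgp, median-ratio scaling gave 4 lower and 2 higher calls in this list, and quantile normalization 5 lower and 2 higher. Over all 13749 tested genes median-ratio scaling gave 3622 lower and 3603 higher calls, and quantile normalization 3639 lower and 3575 higher. Of 6 genes grouped under the vitamin K cycle, its enzymes and the carboxylase inhibitor Calu, all were tested, 4 were lower and none was higher.

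Nqo1, a quinone reductase that can reduce vitamin K, had 28.9, 31.5 and 30.7 TPM in hypoxia-treated cells, against 78.8, 79.9 and 78.1 TPM in normoxic cells (log2 fold change -1.35 ± 0.05, limma adjusted p = 5.37e-06). For Nqo1 every hypoxia-treated library lay below every normoxic one. Vkorc1l1, the paralog of Vkorc1, had 20.2, 20.1 and 29.5 TPM in hypoxia-treated cells, against 34.4, 55.1 and 30.7 TPM in normoxic cells (-0.74 ± 0.24, limma adjusted p = 0.0370). That call was lost without hypoxia-treated replicate 1 (limma adjusted p = 0.107) or 2 (0.105), without normoxic replicate 1 (0.0564) or 2 (0.0675), and under median-ratio scaling (0.0798). Calu, which encodes calumenin, an inhibitor of the carboxylase, had 729, 352 and 727 TPM in hypoxia-treated cells, with replicate 2 apart from the others, against 813, 636 and 671 TPM in normoxic cells, and was not called (limma adjusted p = 0.407).

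Of the 13 secreted Gla proteins, 10 were below the filter, including the clotting factors F7, F9 and F10, which were listed at 0 in all libraries, and Bglap, which encodes the bone Gla protein osteocalcin, at 0.605 TPM or less. Besides Mgp and Gas6, Pros1 (protein S, an anticoagulant and TAM ligand) was expressed. It had 19.7, 20.0 and 21.9 TPM in hypoxia-treated cells, against 36.5, 32.0 and 32.8 TPM in normoxic cells (log2 fold change -0.69 ± 0.07, limma adjusted p = 0.000338). Axl, the most abundant of the 3 receptors of Gas6, had 245, 257 and 255 TPM in hypoxia-treated cells, against 354, 349 and 360 TPM in normoxic cells (-0.49 ± 0.04, limma adjusted p = 7.19e-05). Tyro3 fell as well, at -0.65 ± 0.17 (limma adjusted p = 0.0148), whereas Mertk was higher, with 3.92, 3.91 and 4.16 TPM in hypoxia-treated cells against 2.43, 2.31 and 2.68 TPM in normoxic cells (0.53 ± 0.11, limma adjusted p = 0.00531). The 2 tested membrane Gla proteins, Prrg1 and Prrg2, were not called, with limma adjusted p-values of 0.623 and 0.413.

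**Figure D2:**
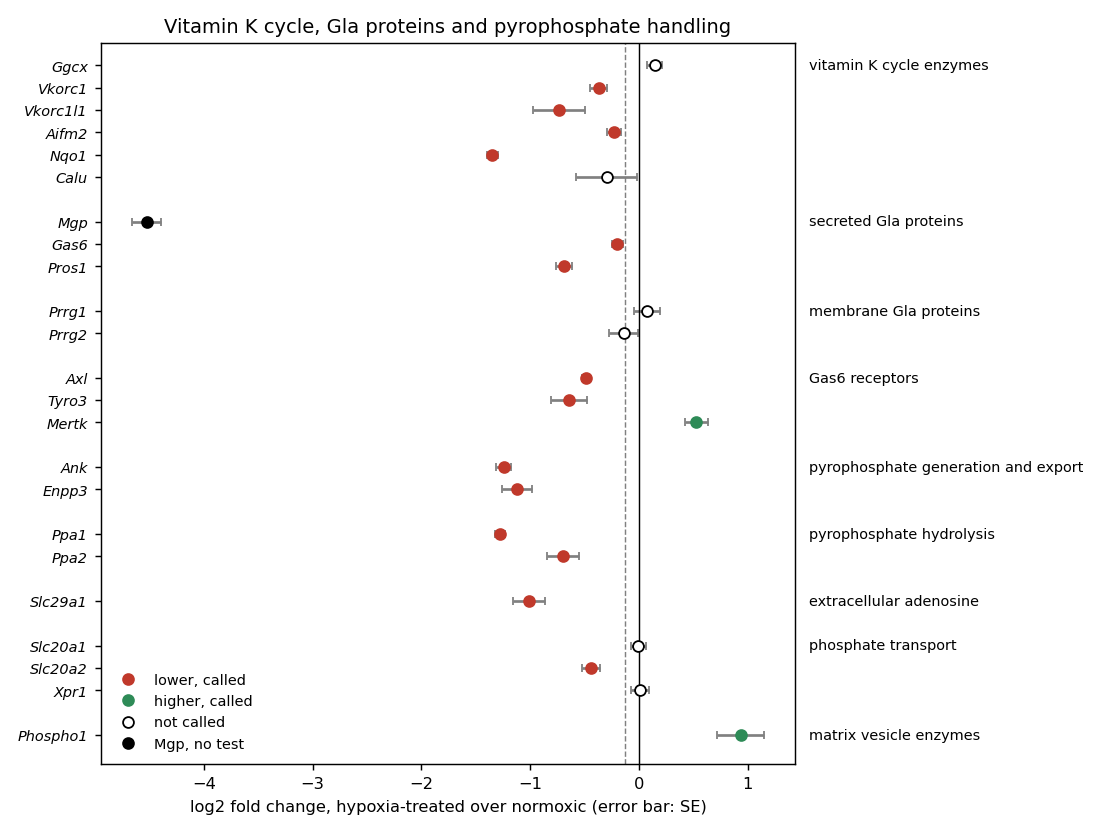
Log2 fold change of hypoxia-treated over normoxic cells with its SE for each tested gene of both lists, grouped by role; red points were called lower, green higher, open not called, and black marks Mgp, which has no test. The dashed line is the median of all tested genes at -0.13; Mgp at -4.53 lies far to the left of Nqo1 at -1.35 and Ppa1 at -1.28.

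In the control of pyrophosphate, the exporter was the expressed member. Ank had 28.0, 30.0 and 32.7 TPM in hypoxia-treated cells, against 71.4, 70.7 and 76.3 TPM in normoxic cells. The groups were well apart, hypoxia-treated cells had 41.5% of the normoxic mean, and the log2 fold change was -1.24 ± 0.07 (limma adjusted p = 2.39e-05). Enpp1 and Alpl, which make and destroy pyrophosphate, were not expressed at a level that could be compared. Enpp1 had 0.0838, 0.0543 and 0.0456 TPM in hypoxia-treated cells and 0.0606, 0.104 and 0.0523 TPM in normoxic cells. Alpl was listed at 0 in all libraries except normoxic replicate 1, at 0.00374 TPM. Abcc6, the transporter through which liver releases ATP for pyrophosphate, was listed at 0 throughout.

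Of the 20 genes of pyrophosphate and phosphate handling, Ank, Enpp1 and Alpl included, 9 were tested, 6 were lower and 1 was higher, with a median log2 fold change of -0.70, beside 36.1% lower, 17.9% higher and a median of -0.13 over all tested genes. The other 11 stayed at or under 0.951 TPM in every library. Ppa1, the cytosolic pyrophosphatase, had 44.8, 43.7 and 45.1 TPM in hypoxia-treated cells, against 114, 108 and 106 TPM in normoxic cells (log2 fold change -1.28 ± 0.05, limma adjusted p = 4.52e-06). Ank and Ppa1 were lower by like amounts: the TPM of Ank was 0.625, 0.686 and 0.727 times that of Ppa1 in hypoxia-treated cells and 0.626, 0.652 and 0.717 times in normoxic cells. Enpp3, a relative of Enpp1, had 0.875, 1.02 and 1.07 TPM in hypoxia-treated cells, against 2.95, 3.23 and 3.82 TPM in normoxic cells (-1.12 ± 0.14, limma adjusted p = 0.000589). Its mean in hypoxia-treated cells was 0.989 TPM, so it passed the filter only through its normoxic level, which limits what its call can show. With FPKM or a filter at 5 TPM Enpp3 was not tested, and 5 of 8 tested genes of this list were lower. Slc29a1, a nucleoside transporter that takes up adenosine, fell by 1.01 ± 0.15 on the log2 scale (limma adjusted p = 0.00124).

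For phosphate transport and matrix vesicles, calls went in both directions. Slc20a1, the sodium-phosphate cotransporter PiT-1, had 34.1, 36.7 and 35.2 TPM in hypoxia-treated cells and 32.2, 36.9 and 37.5 TPM in normoxic cells (limma adjusted p = 0.960). Xpr1, the phosphate exporter, was not called either (limma adjusted p = 0.921), while Slc20a2 (PiT-2) was lower at -0.44 ± 0.08 (limma adjusted p = 0.00379). Phospho1, a phosphatase of matrix vesicles, was higher, with 259, 204 and 206 TPM in hypoxia-treated cells against 82.9, 124 and 150 TPM in normoxic cells (log2 fold change 0.93 ± 0.21, limma adjusted p = 0.00922). Its value is uncertain, because Abi3 on the opposite strand and Zfp652 on the same strand overlap it, and both were higher too, at 0.81 and 0.83.

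Spp1, which encodes osteopontin, was the most abundant of the 10 genes. It had 664, 694 and 619 TPM in hypoxia-treated cells, against 1935, 2127 and 2144 TPM in normoxic cells. The mean was 659 ± 37.8 TPM in hypoxia-treated cells and 2068 ± 116 TPM in normoxic cells (SD, n = 3 each), and the log2 fold change was -1.65 ± 0.06 (limma adjusted p = 4.26e-06). Only 144 of the 13749 tested genes had a lower fold change. Spp1 ranked 199th of all genes by level in hypoxia-treated cells and 51st in normoxic cells. Also as a description, Mgp had a TPM of 0.00614, 0.00372 and 0.00521 times that of Spp1 in hypoxia-treated cells and 0.0525, 0.0419 and 0.0472 times in normoxic cells.

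The promoters of Spp1 and Ank, which after Mgp had the largest decreases among the 10 genes, are shown beside those of Ggcx, which was not called, and of Id2, a target gene of BMP signalling that was lower in hypoxia-treated cells. Each is the 250 bases before the RefSeq start on GRCm38.p6, read 5′ to 3′ on the strand of the gene: Spp1 at chr5:104434861-104435110 (plus strand), Ank at chr15:27466427-27466676 (plus), Ggcx at chr6:72414058-72414307 (plus) and Id2 at chr12:25096093-25096342 (minus). Capitals mark matches on either strand to the core of the hypoxia response element (ACGTG or GCGTG), the GC-rich SMAD element GGCGCC, or the RUNX element ACCACA.
Spp1: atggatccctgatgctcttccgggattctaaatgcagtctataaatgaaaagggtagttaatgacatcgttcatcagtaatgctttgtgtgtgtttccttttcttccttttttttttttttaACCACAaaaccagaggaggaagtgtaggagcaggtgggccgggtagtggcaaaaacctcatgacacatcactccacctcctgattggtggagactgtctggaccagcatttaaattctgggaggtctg
Ank: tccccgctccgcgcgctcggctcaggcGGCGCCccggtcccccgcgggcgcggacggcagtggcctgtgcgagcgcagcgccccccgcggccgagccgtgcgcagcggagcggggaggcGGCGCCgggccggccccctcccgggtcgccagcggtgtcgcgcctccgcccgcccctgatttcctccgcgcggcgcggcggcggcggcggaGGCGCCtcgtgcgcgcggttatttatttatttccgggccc
Ggcx: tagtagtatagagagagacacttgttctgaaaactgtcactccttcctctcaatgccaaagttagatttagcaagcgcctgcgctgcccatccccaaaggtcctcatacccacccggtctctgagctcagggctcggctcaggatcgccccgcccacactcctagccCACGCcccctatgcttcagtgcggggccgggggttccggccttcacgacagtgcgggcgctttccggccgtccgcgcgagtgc
Id2: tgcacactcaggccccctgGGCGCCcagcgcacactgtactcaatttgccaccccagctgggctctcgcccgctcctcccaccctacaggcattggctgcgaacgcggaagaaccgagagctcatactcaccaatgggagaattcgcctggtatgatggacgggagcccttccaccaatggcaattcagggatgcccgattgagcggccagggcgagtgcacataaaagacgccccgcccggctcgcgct

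In these windows Spp1 held 1 RUNX element, 128 bases before its start, Ank held 3 GGCGCC elements, Ggcx held 1 GCGTG core and Id2 held 1 GGCGCC element. Promoters not shown also held matches. Vkorc1 held 1 GCGTG core, Bmp4 2 ACGTG matches that overlap, and Alpl 1 GGCGCC element. Enpp1 held 1 ACGTG core, 1 GCGTG core and 1 RUNX element. Id3, also a lower BMP target, held 1 GCGTG core and no GGCGCC element. The RefSeq start used for Id3 lay 325 bases from the annotated start, so its window falls inside the annotated gene. Gas6 held no match. Of 32851 RefSeq promoters of the same length, 16.6% held ACGTG, 28.2% GCGTG, 9.59% GGCGCC and 14.0% ACCACA on either strand, and matches to ACGTG and GCGTG can overlap when read on opposite strands. These are descriptions of letters and not of bound sites. Of the 10 genes, 8 had an entry, and Mgp and Bmp2 had none. Id1, the BMP target with the largest decrease among Id1, Id2 and Id3, had no entry either.

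Of the 29 genes of mineralized matrix and osteogenesis, Spp1 included, 13 were tested, 4 were lower and 4 higher, and the median log2 fold change was -0.01. Over all tested genes these were 36.1%, 17.9% and -0.13. Ibsp, Dmp1, Mepe and Dspp, which belong with Spp1 to a family of acidic mineral-binding proteins, were listed at 0 in all libraries, so osteopontin was the only expressed member. Sparc (osteonectin), with 1746, 1388 and 1649 TPM in hypoxia-treated cells and 1563, 1558 and 1568 TPM in normoxic cells, was not called (limma adjusted p = 0.839), but passed the threshold as higher without hypoxia-treated replicate 2, at 0.12 (limma adjusted p = 0.0476). Fam20b, a xylose kinase of proteoglycan synthesis, was lower at -0.29 ± 0.06 (limma adjusted p = 0.00723), though not under median-ratio scaling (limma adjusted p = 0.0675). That scaling gave 2 lower and 5 higher calls in this list, beside 3622 lower and 3603 higher calls over all 13749 tested genes.

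Of the factors that set a bone or cartilage fate, Sox9, which drives cartilage genes, was higher with 13.8, 13.3 and 13.0 TPM in hypoxia-treated cells, against 6.50, 6.89 and 5.84 TPM in normoxic cells (log2 fold change 0.95 ± 0.08, limma adjusted p = 0.000140). Runx2, the master factor of osteoblasts, had 35.3, 26.8 and 28.1 TPM in hypoxia-treated cells and 24.2, 24.7 and 25.8 TPM in normoxic cells, which did not pass (limma adjusted p = 0.0826). Under median-ratio scaling (limma adjusted p = 0.0253) and without hypoxia-treated replicate 2 (0.0480) Runx2 was called higher. The receptors of osteopontin differed in direction: Itgav (0.42 ± 0.06, limma adjusted p = 0.00122) and Itgb1 (0.28 ± 0.05, limma adjusted p = 0.00261) were higher, and Itgb3 (-0.65 ± 0.11, limma adjusted p = 0.00311) was lower. Cd44 (-0.23, limma adjusted p = 0.0289) and Itga5 (0.12, limma adjusted p = 0.0380) were also called, Cd44 losing its call without any one of 4 libraries (hypoxia-treated 1 or 2, normoxic 1 or 2; limma adjusted p up to 0.0884) and Itga5 without any single library (limma adjusted p = 0.0542 to 0.112).

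Among the BMP ligands that MGP can bind, Bmp4 was expressed. It had 20.2, 18.3 and 21.8 TPM in hypoxia-treated cells, against 28.5, 25.7 and 30.4 TPM in normoxic cells. The groups did not overlap, hypoxia-treated cells had 71.3% of the normoxic mean, and the log2 fold change was -0.47 ± 0.09 (limma adjusted p = 0.00444). The antisense gene Gm15222, which overlaps Bmp4, had 1.70 TPM or less in every library. The protein-coding gene Gm15217 on the opposite strand also overlaps Bmp4, and its level is not given here. The assembled TPM at Bmp4 differed from the annotated TPM by up to 30.6%, so its value is uncertain. Bmp2 was near 0, with 0.0361, 0 and 0 TPM in hypoxia-treated cells and 0.0777, 0.0710 and 0.0337 TPM in normoxic cells. The only other ligand tested, Bmp7, was lower at -0.28 ± 0.09 (limma adjusted p = 0.0434), a call lost without any library other than hypoxia-treated replicate 3 (limma adjusted p up to 0.117) and under median-ratio scaling (limma adjusted p = 0.188).

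The RNAs of Id1, Id2 and Id3, inhibitors of basic helix-loop-helix factors and classical targets of BMP signalling, fell, with larger log2 fold changes than the ligands, although that difference was not tested. Id1 had 10.6, 14.5 and 15.2 TPM in hypoxia-treated cells, against 125, 127 and 125 TPM in normoxic cells (log2 fold change -3.15 ± 0.12, limma adjusted p = 6.29e-06). Id3 had 59.3, 73.8 and 79.3 TPM in hypoxia-treated cells, against 309, 296 and 301 TPM in normoxic cells (-2.09 ± 0.10, limma adjusted p = 1.50e-05). Id2 had 52.7, 47.7 and 60.5 TPM in hypoxia-treated cells, against 165, 156 and 162 TPM in normoxic cells (-1.58 ± 0.09, limma adjusted p = 2.17e-05). Among the 13749 tested genes, 14 had a lower fold change than Id1, 65 than Id3 and 185 than Id2. Per unit of Bmp4, Id1 RNA was 0.525, 0.794 and 0.698 times in hypoxia-treated cells and 4.37, 4.95 and 4.12 times in normoxic cells, on the TPM scale.

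The BMP pathway list held 51 genes, Bmp2 and Bmp4 included, of which 30 were tested, with 14 lower and 8 higher and a median log2 fold change of -0.24, beside 36.1% lower, 17.9% higher and a median of -0.13 over all tested genes. Leaving out single libraries gave 12 to 15 lower calls and 4 to 6 higher calls, the fewest higher calls without normoxic replicate 2. Median-ratio scaling gave 10 lower and 10 higher, beside 3622 lower and 3603 higher calls over all 13749 tested genes. Of 8 tested receptors and coreceptors, 3 were lower and 3 higher. Eng, the coreceptor endoglin, had 28.0, 23.0 and 30.8 TPM in hypoxia-treated cells, against 55.6, 54.2 and 59.2 TPM in normoxic cells (log2 fold change -1.03 ± 0.11, limma adjusted p = 0.000286). The type II receptors Acvr2b (0.81 ± 0.10, limma adjusted p = 0.000707) and Bmpr2 (0.25 ± 0.06, limma adjusted p = 0.0107) were higher, and the type I receptor Bmpr1a was lower (-0.24 ± 0.05, limma adjusted p = 0.00693), though not under median-ratio scaling (limma adjusted p = 0.151).

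Of 9 tested secreted antagonists, 5 were lower and 2 higher, beside 36.1% lower and 17.9% higher over all tested genes. Fstl3, which traps activins and some BMPs, was higher with 9.93, 10.7 and 10.7 TPM in hypoxia-treated cells, against 5.12, 3.95 and 2.82 TPM in normoxic cells (log2 fold change 1.23 ± 0.17, limma adjusted p = 0.00103). Grem1 (gremlin), an antagonist that binds BMP2 and BMP4, had 3.26, 2.15 and 3.02 TPM in hypoxia-treated cells, against 7.18, 7.07 and 8.01 TPM in normoxic cells (-1.15 ± 0.14, limma adjusted p = 0.000553). Nog (noggin), which binds the same ligands, was higher at 0.46 ± 0.16 (limma adjusted p = 0.0417), a call lost without any library other than hypoxia-treated replicate 3 (limma adjusted p up to 0.129).

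Of the 8 tested SMADs and their inhibitors, 3 were higher and 1 was lower, beside 17.9% higher and 36.1% lower over all tested genes. Smad1, which carries the BMP signal, was not called (limma adjusted p = 0.0972), and its libraries held 40.7, 44.7 and 41.8 TPM in hypoxia-treated cells and 46.2, 45.9 and 46.1 TPM in normoxic cells. Smad6, an inhibitory SMAD that is itself a BMP target, was lower at -0.41 ± 0.08 (limma adjusted p = 0.00395). Smurf2, a ubiquitin ligase for SMADs and their receptors, was higher at 0.38 ± 0.05 (limma adjusted p = 0.00113).

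**Figure D3:**
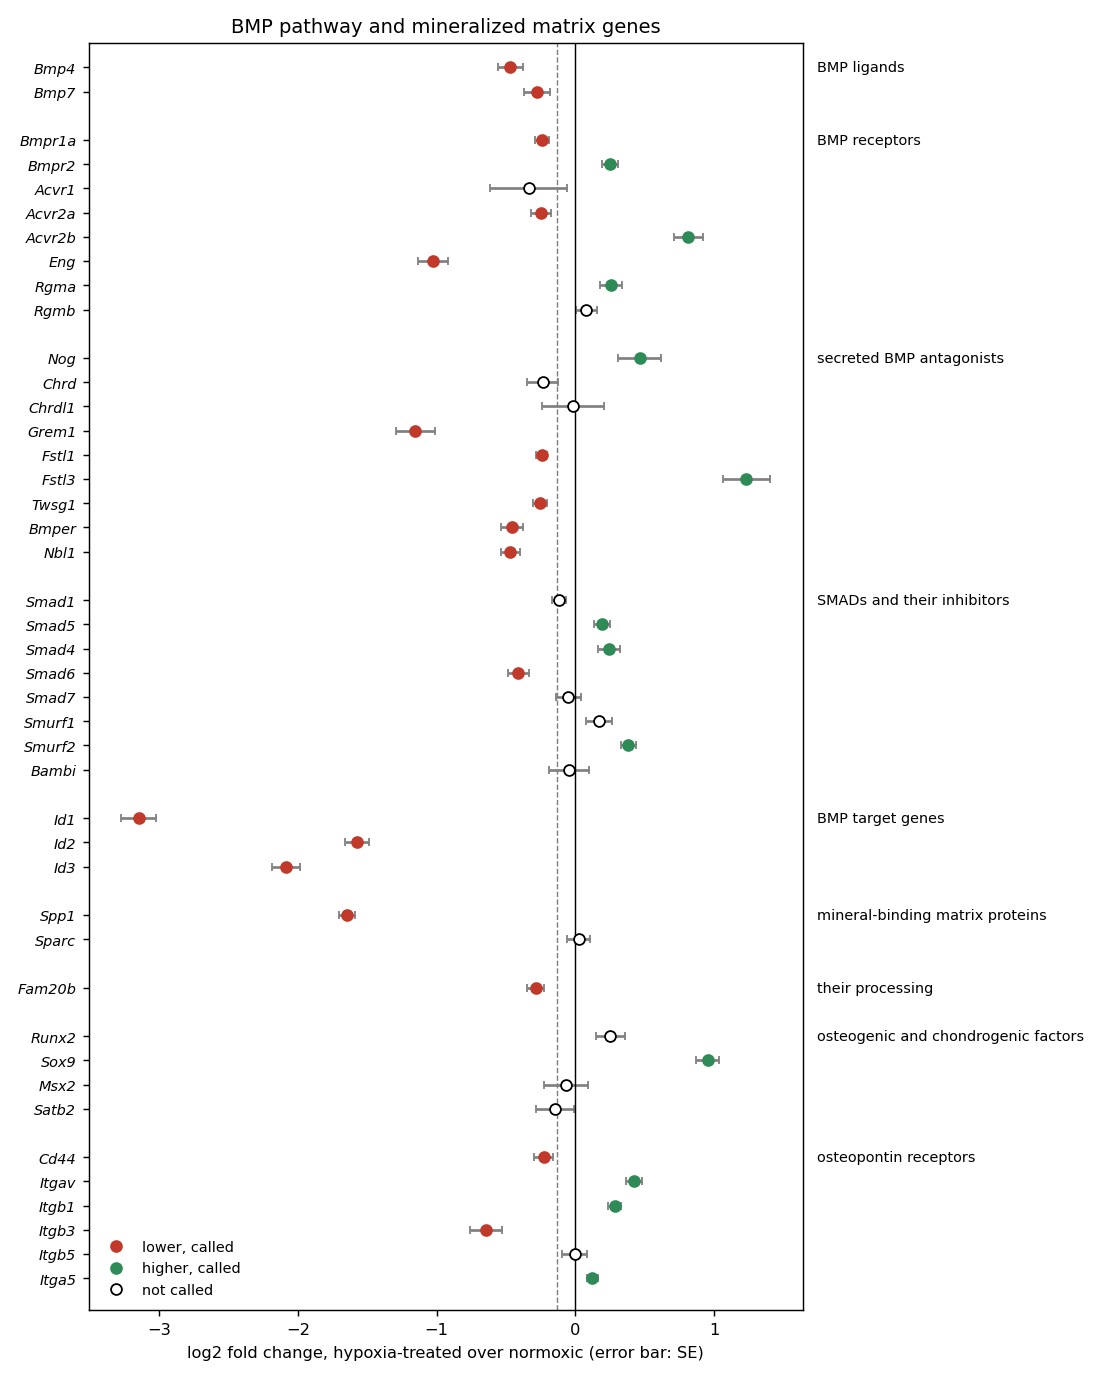
Log2 fold change of hypoxia-treated over normoxic cells with its SE for each tested gene of the BMP pathway and of the mineralized matrix list, grouped by role; red points were called lower, green higher and open not called. The 3 Id genes, at -3.15, -1.58 and -2.09, and Spp1 at -1.65 lie left of the ligands Bmp4 and Bmp7 at -0.47 and -0.28; the dashed line is the median of all tested genes.

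By level, Spp1 and Vkorc1 came first and Enpp1, Bmp2 and Alpl last in both groups. In hypoxia-treated cells the order of mean TPM was Spp1, Vkorc1, Ggcx, Gas6, Ank, Bmp4, Mgp, Enpp1, Bmp2 and Alpl, and the only neighbours whose ranges overlapped were Bmp2 and Alpl. In normoxic cells it was Spp1, Vkorc1, Mgp, Ank, Gas6, Ggcx, Bmp4, Enpp1, Bmp2 and Alpl, with overlap between Vkorc1 and Mgp and between Enpp1 and Bmp2. Mgp thus took position 7 in hypoxia-treated cells and position 3 in normoxic cells.

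The genes around Mgp on chromosome 6 are given as a description. Mgp was chosen as the largest decrease of all tested genes, so a smaller decrease of each tested neighbour was fixed in advance. Of 10 other annotated genes within 100 kb, 3 were tested. Arhgdib, 47.7 kb upstream, had 2.09, 2.43 and 1.38 TPM in hypoxia-treated cells, against 4.13, 4.25 and 5.04 TPM in normoxic cells (log2 fold change -0.90 ± 0.17, limma adjusted p = 0.00374). H2afj, a histone H2A variant 62.4 kb downstream, was lower at -0.27 ± 0.06 (limma adjusted p = 0.00748), though not under median-ratio scaling (limma adjusted p = 0.0914). Wbp11, a splicing factor 44.2 kb downstream, had 122, 77.1 and 117 TPM in hypoxia-treated cells and 108, 107 and 106 TPM in normoxic cells. It was not called (log2 fold change -0.05, limma adjusted p = 0.823) but was higher without hypoxia-treated replicate 2, at 0.16 (limma adjusted p = 0.0352). The nearest genes, Art4 at 14.7 kb downstream and Erp27 at 31.5 kb upstream, were listed at 0 in the hypoxia-treated libraries and had 0.0845 TPM or less in the normoxic ones, and Gucy2c, Hist4h4, BC049715, Smco3 and Pde6h were also near 0.

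**Figure D4:**
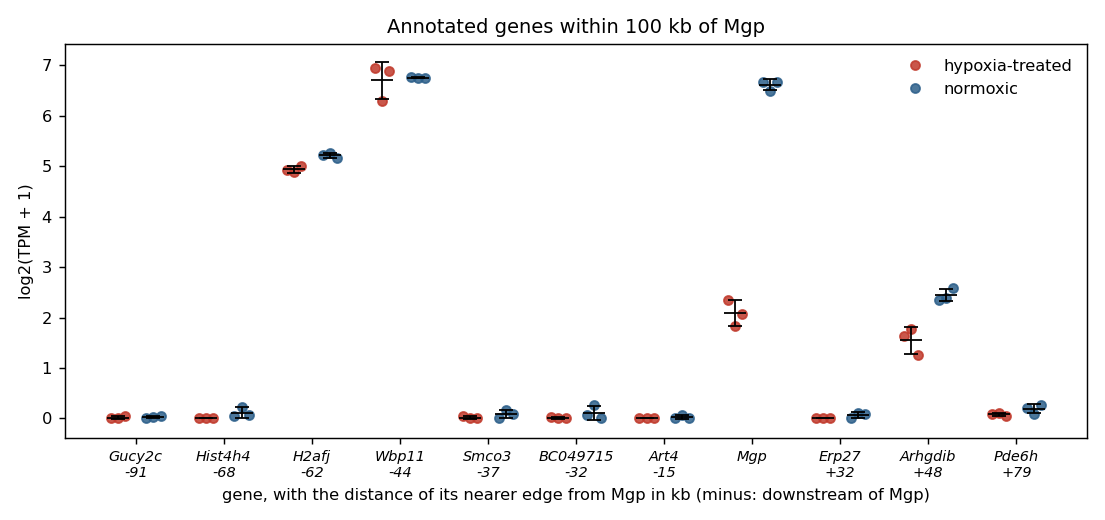
Level on the log2(TPM + 1) axis of each annotated gene within 100 kb of Mgp, ordered by position, with hypoxia-treated libraries in red left of normoxic libraries in blue and black bars for mean and SD. Mgp, chosen as the largest decrease of all tested genes, stands 4.53 log2 units apart between the groups, against 0.90 for Arhgdib. The groups of Wbp11 overlap.

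The pattern most like that of Mgp over the 6 libraries, measured as the root mean square difference of log2(TPM + 1) after each gene was centred on its own mean, was that of Isg15 (0.297), a ubiquitin-like interferon-induced protein. It was followed by the chemokines Ccl2 (0.303) and Cxcl10 (0.495) and by the interferon-induced Rtp4 (0.521) and Ifit1 (0.576). Isg15 had 25.0, 21.7 and 18.1 TPM in hypoxia-treated cells, against 346, 349 and 398 TPM in normoxic cells. Ccl2 had 2.85, 3.18 and 2.79 TPM in hypoxia-treated cells, against 64.4, 62.6 and 66.0 TPM in normoxic cells. Since Mgp had the largest decrease, genes with large decreases are close to it by construction, and with 6 libraries in 2 groups the measure mostly follows the size of the difference.

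**Figure D5:**
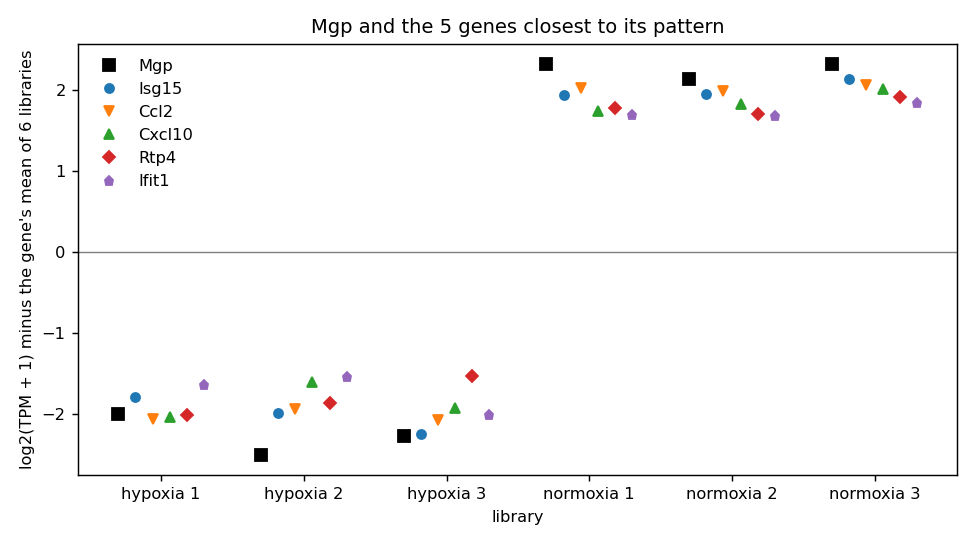
Level of Mgp (black squares) and of the 5 closest genes in each library, as log2(TPM + 1) minus the gene's mean of 6 libraries, with the hypoxia-treated libraries left of the normoxic ones. All 6 genes lie below 0 in the hypoxia-treated and above 0 in the normoxic libraries, with Isg15 differing from Mgp by 0.297 and Ifit1 by 0.576 as root mean square.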

How the data were processed

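Poly(A) RNA of 3 hypoxia-treated and 3 normoxic GC-2spd libraries was sequenced in pairs on a NovaSeq. Per the labels, the authors used Cutadapt, HISAT2 and StringTie on mm10; versions, the annotation release and strand settings are not given in the sources used here. The deposited coverage (signal) is mean read depth. It served only to estimate the aligned gigabases, as its most common ratio to FPKM over well covered genes. The deposited FPKM is scaled for length and aligned fragments and was an alternative. The deposited TPM lists annotated genes beside assembled loci, which sum to 1000000 per library, so only annotated rows were used. Counts were not used here, so intervals for counting error were not calculated.

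Of 43432 IDs, 42462 had a symbol; TPM was summed per symbol. Genes with a mean of at least 1 TPM (13749) were fitted as log2(TPM + 1) with limma 3.58.1 in R 4.3.3 (trend, 2-sided, Benjamini-Hochberg over all tested genes, threshold 0.05); the steps were tested on simulated data. Python 3.11.15 made the tables. The design had assumed a TPM table of annotated genes alone; the test was kept as planned. Alternatives were a pseudocount of 0.1, no filter, a filter at 5 TPM, median-ratio scaling, quantile normalization, FPKM, a replicate block and leaving out each library.

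The members, the 4 pathway lists and the tests were chosen with earlier results of these data known. The text names the 10 members, up to 4 called genes per direction of each list with the smallest adjusted p, genes that a member's account turns on, genes within 100 kb of Mgp, the next largest decrease and the 5 genes most like Mgp. Promoters are from RefSeq. A gene of the vitamin K list was left out of its counts and is not reported here.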

Additional observations from a re-analysis of the deposited data

How the results depend on the processing

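The fold change of Mgp on the log2 scale was -4.53, and -4.66 to -4.41 when single libraries were left out. It was -4.86 with a pseudocount of 0.1 TPM and -4.15 with FPKM, both on the same side. Of the 9 other members 5 lower calls became 3 under median-ratio scaling, and the count of higher calls, 0, became 1 under median-ratio scaling and 1 under quantile normalization, and was 0 to 1 with single libraries left out. For the vitamin K list without Mgp, the 8 lower calls became 4 under median-ratio scaling and 5 under quantile normalization, 6 to 8 with single libraries left out, and the 1 higher call became 0 with the filter at 5 TPM, 2 under either scaling and 1 to 2 with single libraries left out. For pyrophosphate handling the 1 higher call became 2 under quantile normalization. Its 6 lower calls became 5 with FPKM and with the filter at 5 TPM, where Enpp3 was not tested, and 7 without a filter. For the BMP pathway the 8 higher calls were 4 to 6 with single libraries left out, and 6 with the replicate block. For the matrix list the 4 lower calls became 2 under median-ratio scaling. Signs turned for 3 genes that were not called. Wbp11 (-0.05) was 0.10 under median-ratio scaling, 0.0081 under quantile normalization and -0.17 to 0.16 with single libraries left out. Sparc (0.02) was -0.030 with FPKM, -0.21 under quantile normalization and -0.047 to 0.12 with single libraries left out. Slc20a1 (-0.01) was 0.14 under either scaling and -0.072 to 0.034 with single libraries left out. The cause of these changes was not tested.

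The libraries share only a replicate number: deviations of same-numbered libraries correlated at 0.03, 0.03 and 0.01, and 2 of 3 correlated best with their own number. The replicate block gave 2281 higher and 4674 lower calls over all genes, in place of 2463 and 4967, and left the 5 lower calls among the members. Only 3 libraries per group limit the precision, and no counts gave a depth per gene.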
